A study of Homo sapiens with 12 samples.

Results

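The activin group of genes was followed through the transcriptomes of 2 human non-small cell lung carcinoma (NSCLC) lines, H460 and A549, treated with isovalerylspiramycin I (ISP-I), a macrolide. The group held 10 of the 19973 genes in the expression table: the ligand subunit genes INHBA, INHBB and INHBE, the antagonists FST and FSTL3, the type I receptors ACVR1 and ACVR1B, the type II receptors ACVR2A and ACVR2B, and the inhibitory SMAD7. They were taken from the table by symbol, and the group was chosen by its FPKM in the 4 groups of libraries with earlier results of these data known, so their levels and differences are a description and no p is given for them. Where a member is said to be called, this states only on which side of the thresholds of a fit over all genes it lay. FPKM are reads scaled by the length of the gene and the total of the library, a scale on which genes can be compared with each other. The table holds a single length per gene, which need not be that of the transcript expressed, so ratios between genes depend on it. Both lines were labelled wild type (WT) and neither carried an added allele, but the authors describe both as carrying homozygous inactive KEAP1. In each line, 3 libraries came from non-treated cells (control) and 3 from cells that received ISP-I at 10 µM for 48 h, 12 libraries in all. The methods speak of replicates, and in general of independent experiments, but do not say that the 3 libraries of a group came from separate cultures, so the spread between them may be technical. Whether the controls received the solvent was not given in the sources used here. These were bulk libraries, in which fewer cells with a transcript and less of it per cell cannot be told apart.

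Activins are secreted dimers of inhibin beta subunits and belong to the TGF-β family. INHBA and INHBB encode the subunits of activin A and activin B, and INHBE that of activin E, known mainly from the liver. An activin dimer binds a type II receptor (ACVR2A or ACVR2B), which phosphorylates a type I receptor, typically ACVR1B, and SMAD2 and SMAD3 then move with SMAD4 into the nucleus. Follistatin (FST) and follistatin-like 3 (FSTL3) wrap around the dimer and keep it from its receptors, and SMAD7 blocks the type I receptors and is itself induced by the pathway. ACVR1, also called ALK2, is best known for passing BMP signals to SMAD1 and SMAD5, and can be held by activin A in complexes that do not signal. In lung carcinoma, activin A and its antagonists are known as secreted products of the tumour cells.

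The depth was 14225849 to 17874422 reads on genes per library. The replicates of a group differed by more than counting noise in each pair, most between H460 ISP-I libraries 2 and 3 (chi-square per degree of freedom 98.7, against a lowest value of 3.03). The epithelial markers summed to 355.5 to 431.6 FPKM in H460 controls, where 3 of 5 were at 1 FPKM or more and CDH1 was listed at 0, and to 924.1 to 1252 FPKM in A549 controls, where 5 of 5 were. With ISP-I they summed to 327.3 to 414.9 FPKM in H460 (3 of 5) and to 628.1 to 659.2 FPKM in A549 (4 of 5), the latter below all A549 controls, and their part in the results was not tested. Endothelial markers (0 of 4 at 1 FPKM or more) summed to at most 0.3886 FPKM in any library and fibroblast markers (at most 1 of 5) to at most 3.447 FPKM. Leukocyte markers (at most 1 of 5) summed to 5.221 to 6.481 FPKM in H460 controls and to at most 1.735 FPKM in the other groups, with CD3E listed at 0 throughout.

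The 4 members called higher in H460 with ISP-I are shown with the 250 bases before their start, 5′ to 3′, so that these regions can be compared. Sequences and starts are from RefSeq on GRCh38.p14, which held 9 of the 10 members (all but INHBE). INHBA is on the minus strand, chr7:41703091-41703340, and this start lies 2744 bases inside the 5′ end of the gene in the expression table. FST is on the plus strand, chr5:53480379-53480628, FSTL3 on the plus strand, chr19:676142-676391, and ACVR1 on the minus strand, chr2:157876331-157876580. Capitals mark each match to 1 of 8 short motifs, searched on both strands and listed below.
INHBA: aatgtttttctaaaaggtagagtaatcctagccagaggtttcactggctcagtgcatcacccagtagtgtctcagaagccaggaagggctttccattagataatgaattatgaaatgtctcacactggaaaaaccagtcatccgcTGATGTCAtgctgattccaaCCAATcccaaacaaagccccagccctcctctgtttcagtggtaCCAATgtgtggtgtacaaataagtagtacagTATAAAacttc
FST: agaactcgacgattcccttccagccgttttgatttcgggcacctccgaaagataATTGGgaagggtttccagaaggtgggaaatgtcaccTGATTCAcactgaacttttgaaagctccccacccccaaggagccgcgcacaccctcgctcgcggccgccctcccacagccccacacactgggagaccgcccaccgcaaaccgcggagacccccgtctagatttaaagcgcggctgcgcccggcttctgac
FSTL3: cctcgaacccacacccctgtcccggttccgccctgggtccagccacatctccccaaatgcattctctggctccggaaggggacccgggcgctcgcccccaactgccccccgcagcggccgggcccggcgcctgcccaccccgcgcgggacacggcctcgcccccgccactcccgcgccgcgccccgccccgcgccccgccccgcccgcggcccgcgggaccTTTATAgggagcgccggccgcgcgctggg
ACVR1: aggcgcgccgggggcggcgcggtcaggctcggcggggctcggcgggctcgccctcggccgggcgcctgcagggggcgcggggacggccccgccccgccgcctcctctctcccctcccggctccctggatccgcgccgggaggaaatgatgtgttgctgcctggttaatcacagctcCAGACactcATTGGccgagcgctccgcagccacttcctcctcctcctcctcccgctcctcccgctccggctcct

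The motifs were picked after these regions had been seen, so a match is a description and not a binding site. A loose AP-1 pattern, TGANTCA with any base in the middle, occurred in 6.59% of 34788 windows of the same length before other starts. Of the 4 regions FST held it, as TGATTCA, at positions -160 to -154 counted from the base before the start. The stricter AP-1 element, with C or G in the middle, falls within this pattern and was therefore in none of the 4. Its share of windows was not counted. A cAMP response element (CRE), TGACGTCA, was in 1.64% of windows and in none of the 4. Its variant TGATGTCA, which differs from it by a single letter, was in 2.36% of windows and stood in INHBA at positions -105 to -98. A TATA box, TATAAA, was in 10.8% of windows, and was found in INHBA at positions -11 to -6 and on the opposite strand in FSTL3 at positions -29 to -24. CCAAT was in 32% of windows and in INHBA, FST and ACVR1, and the short SMAD letters CAGAC were in 38% and in ACVR1. The palindromic SMAD element GTCTAGAC (0.178% of windows) and the EGR element GCGTGGGCG (0.722%) were in none of the 4. None of the matches in the 4 regions overlapped another. The regions also differed in base content, with 42.8% G and C in INHBA, 60% in FST, 75.2% in ACVR1 and 80% in FSTL3.

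The ligand genes changed differently with ISP-I in the 2 lines. In H460, INHBA went from under 1 FPKM to among the most abundant transcripts, whereas A549, which held INHBB instead, lost most of that transcript. INHBA was higher with ISP-I in A549 too, without overlap, but reached no more than 0.259 FPKM there. Both antagonists and the receptor gene ACVR1 were higher with ISP-I in H460, and the other receptor genes of the group moved little in either line. Over all genes, a call needed a fold over 2 and an adjusted p under 0.05 (limma on log2 of FPKM + 1, for genes averaging 0.1 FPKM or more). By this rule 4 of the 10 members fitted in H460 were higher (INHBA, FST, FSTL3 and ACVR1) and 0 lower, where 10.5% of 13423 genes were called higher and 15.2% lower. In A549, 0 of 9 were higher and 1 lower (INHBB), where 4.2% of 13705 genes were called higher and 3.51% lower. These shares are background to a group that was chosen on the same values. The FPKM of each library are plotted next.

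**Figure D1:**
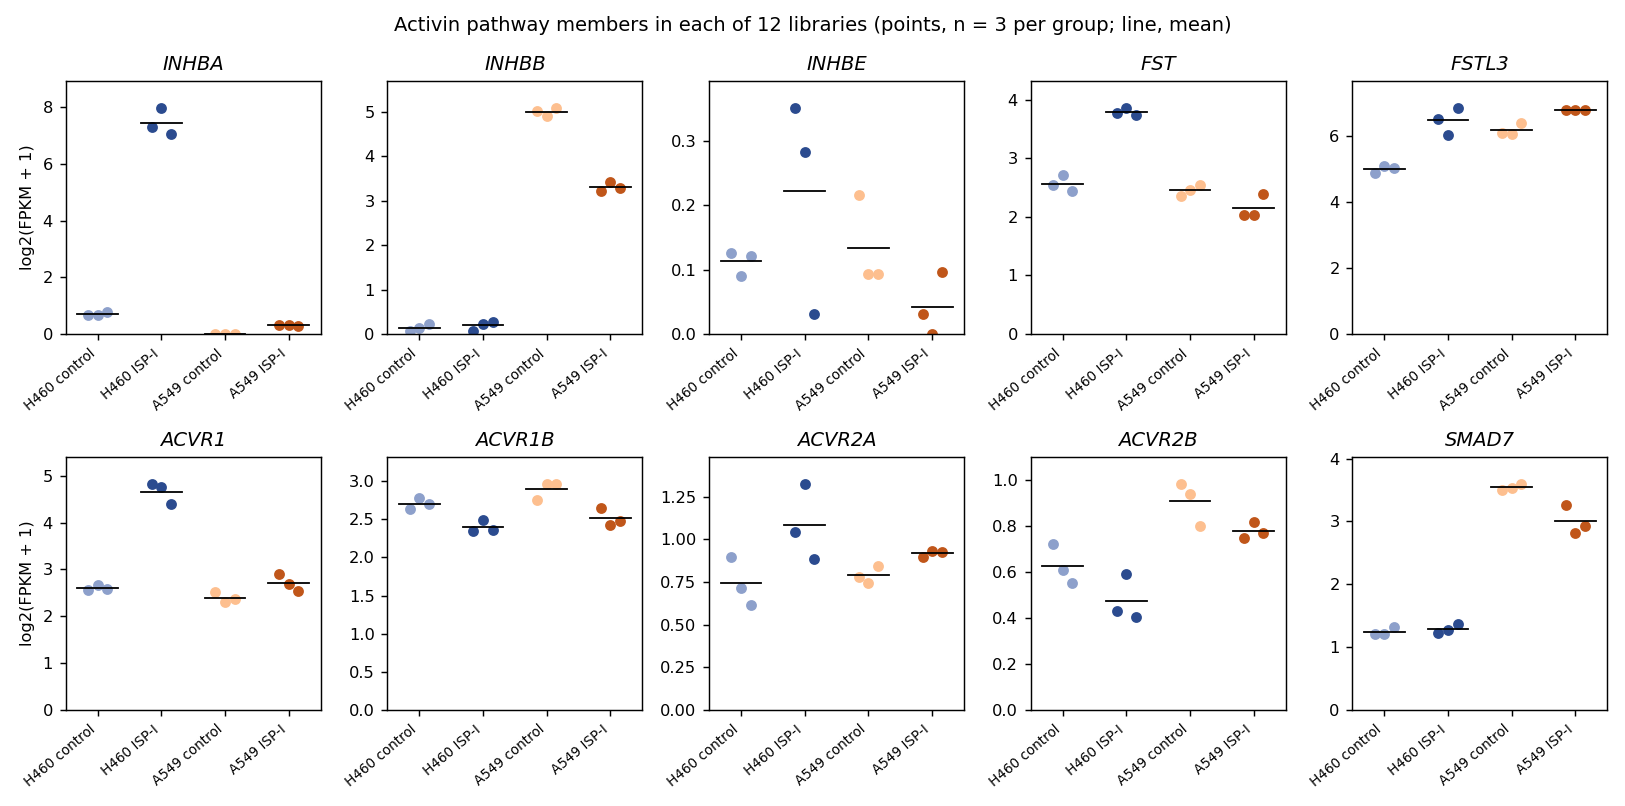
log2(FPKM + 1) of the 10 members in each of the 12 libraries, 1 panel per gene with its own vertical scale from 0. Points are libraries (n = 3 per group), lines are group means, and the groups on the horizontal axis are H460 control, H460 ISP-I, A549 control and A549 ISP-I. INHBA is under 1 on this scale in every group but H460 ISP-I, and INHBB is high in A549 only, at a lower level with ISP-I.

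INHBA, the subunit of activin A (ENSG00000122641, chr7:41667168-41705834 on hg38, minus strand), was read at 0.596, 0.596 and 0.697 FPKM in H460 control libraries 1 to 3, from 71, 75 and 86 reads. With ISP-I, H460 libraries 1 to 3 held 158.1, 249.1 and 133.3 FPKM, from 23415, 34371 and 16392 reads. The lowest treated library was far above the highest control, and the transcript ranked 183, 92 and 288 from the top of the table in the treated libraries, against 10685 or further down in the controls. The group mean was 0.630 ± 0.0583 FPKM (SD, n = 3) in controls and 180.2 ± 60.9 FPKM with ISP-I, a ratio of 286.2 (95% counting interval 253 to 329, which covers counting error only, as do the other intervals and floors given here). On the log2(FPKM + 1) scale the difference was 6.75 (SE 0.211), the second largest of 13423 genes. In the annotation (GENCODE 44), the lncRNA INHBA-AS1 overlaps INHBA on the opposite strand. Since the strand setting of the counting was not stated, reads from the pair cannot be told apart here.

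A549 held almost no INHBA. Its controls held 1, 0 and 0 reads, where 3 reads, the limit that a count of 0 allows, stand for 0.0245 to 0.0255 FPKM. With ISP-I, A549 libraries held 32, 30 and 26 reads, or 0.259, 0.231 and 0.219 FPKM. All 3 treated libraries were above all 3 controls, and the ratio of the means was 83.48 with a counting interval of 15 to 3420, which is wide because the controls held a single read. The level reached was 0.236 ± 0.0205 FPKM (SD, n = 3), under that of untreated H460. The log2(FPKM + 1) difference of 0.30 (SE 0.048) is small because the pseudocount of 1 exceeds both levels. It was 1.71 with a pseudocount of 0.1 and 5.31 in a fit of the recovered reads with voom, both called. In A549, INHBA passed the filter on low values only through the treated libraries. These calls could therefore only be higher ones and are a description.

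INHBB, the subunit of activin B (ENSG00000163083, chr2:120346136-120351803, plus strand), had the reverse distribution between the lines. In A549 controls it stood at 31.18, 28.78 and 32.87 FPKM, from 1422, 1356 and 1556 reads. With ISP-I the A549 libraries held 8.27, 9.68 and 8.79 FPKM, from 396, 487 and 404 reads. The groups did not overlap, and the mean went from 30.94 ± 2.06 to 8.91 ± 0.714 FPKM (SD, n = 3), 3.47-fold lower, with a log2 difference of -1.69 (SE 0.082). INHBB was the 73rd from the bottom of 13705 genes. H460 held 2, 5 and 8 reads of INHBB in controls and 3, 9 and 10 with ISP-I, at most 0.210 FPKM, and these groups overlapped.

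INHBE, the subunit of activin E (ENSG00000139269, chr12:57452323-57459280, plus strand), was near the limit of detection. H460 held 4, 3 and 4 reads in controls and 15, 11 and 1 with ISP-I. A549 held 7, 3 and 3 reads in controls and 1, 0 and 3 with ISP-I, and was under the filter on low values there. The ratio of the means was 2.11 in H460 (counting interval 1.06 to 4.94) and 0.307 in A549 (0.071 to 0.968). These intervals leave out the spread between libraries. In both lines the treated and control libraries overlapped, so a difference was not established. A lncRNA, ENSG00000287200, overlaps INHBE on the opposite strand.

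Follistatin and FSTL3 bind activins A and B in the same way but start from different levels, FSTL3 being the more abundant in all 12 libraries. FST (ENSG00000134363, chr5:53480626-53487134, plus strand) was at 4.85, 5.57 and 4.46 FPKM in H460 controls and at 12.77, 13.53 and 12.34 FPKM with ISP-I. The treated libraries lay close together and above all controls, and the mean went from 4.96 ± 0.564 to 12.88 ± 0.600 FPKM (SD, n = 3), 2.595-fold higher (log2 difference 1.22, SE 0.115). In A549, FST was at 4.14, 4.52 and 4.82 FPKM in controls and 3.09, 3.08 and 4.28 FPKM with ISP-I. Here the groups overlapped in a single treated library, number 3, and the log2 difference was -0.30 (SE 0.117), which was not called.

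FSTL3 (ENSG00000070404, chr19:676392-683392, plus strand) was at 28.16, 32.65 and 31.36 FPKM in H460 controls and at 90.40, 64.37 and 113.0 FPKM with ISP-I. All treated libraries were above the controls, with a wide spread among them, and library 2, which held the most INHBA, held the least FSTL3. The mean went from 30.72 ± 2.31 to 89.27 ± 24.4 FPKM (SD, n = 3), 2.91-fold higher (log2 difference 1.48, SE 0.197). In A549, FSTL3 was at 66.63, 65.79 and 82.41 FPKM in controls and at 109.0, 107.8 and 108.0 FPKM with ISP-I. The A549 groups did not overlap either, and the ratio of 1.51 (log2 difference 0.60, SE 0.094) was under the 2-fold needed for a call.

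Within a library, the levels of ligand and antagonist transcripts can be set against each other. In H460 controls the sum of INHBA and INHBB was 0.018 to 0.024 of the sum of FST and FSTL3, and with ISP-I it was 1.53, 3.20 and 1.06 times that sum. In A549 the same ratio was 0.377 to 0.441 in controls and 0.0761 to 0.0894 with ISP-I. The ratio thus went up in H460, where both sums were higher, and down in A549, where the ligand sum was lower and FSTL3 higher. FSTL3 exceeded FST 5.81 to 7.03 times in H460 controls and 4.76 to 9.16 times with ISP-I, which overlap, and 14.5 to 17.1 times in A549 controls and 25.2 to 35.3 times with ISP-I. These are ratios of RNA and say nothing of the secreted proteins, which were not measured.

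**Figure D2:**
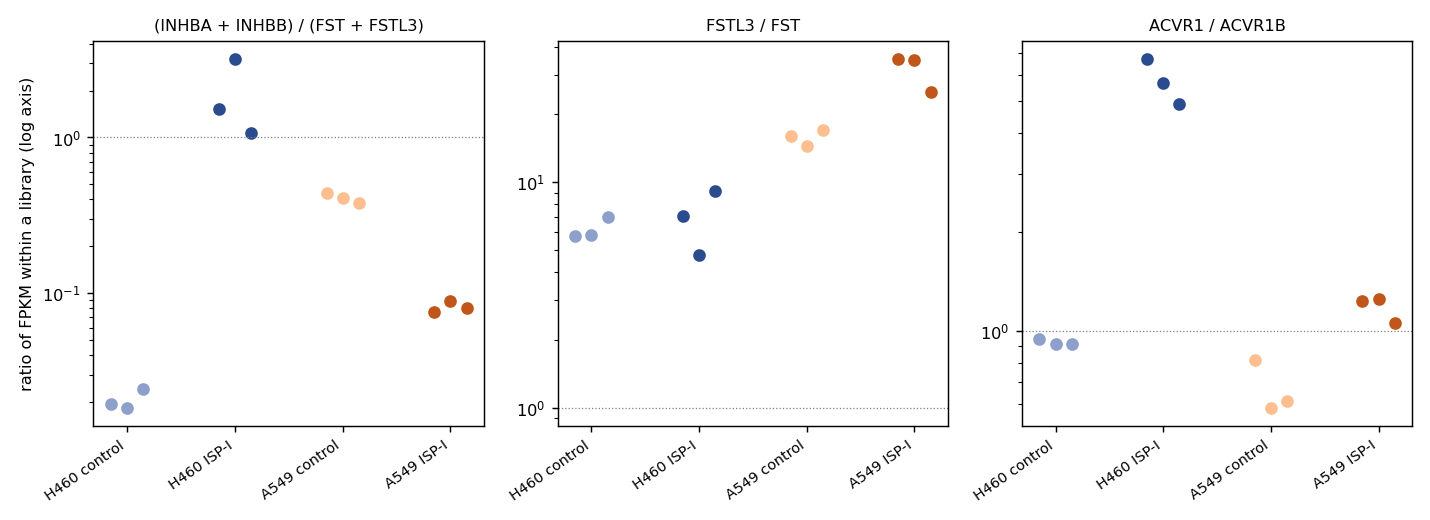
Ratios of FPKM within each library on log axes, for the summed ligand genes over the summed antagonist genes, for FSTL3 over FST and for ACVR1 over ACVR1B. Points are the 3 libraries of each group and the dotted line marks equal levels. The ligand to antagonist ratio crosses 1 in H460 with ISP-I (1.06 to 3.20), and the ACVR1 to ACVR1B ratio reaches 4.88 to 6.71 there.

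Among the receptor genes of the group, only ACVR1 was called in H460. ACVR1C, a type I receptor outside the group, was also higher there, by 2.08 (SE 0.182), as given below. ACVR1 (ENSG00000115170, chr2:157736444-157876330, minus strand) was at 4.89, 5.33 and 4.97 FPKM in H460 controls and at 27.39, 26.02 and 20.19 FPKM with ISP-I. The treated libraries were all above the controls and the mean went from 5.06 ± 0.237 to 24.53 ± 3.82 FPKM (SD, n = 3), 4.84-fold higher (log2 difference 2.06, SE 0.135). In A549 it was at 4.68, 3.96 and 4.17 FPKM in controls and 6.52, 5.46 and 4.81 FPKM with ISP-I, without overlap but with a log2 difference of 0.32 (SE 0.110) that was not called.

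ACVR1B, the usual type I receptor of activin A (ENSG00000135503, chr12:51951699-51997078, plus strand), did not share this. It was at 5.20, 5.85 and 5.48 FPKM in H460 controls and 4.08, 4.61 and 4.13 FPKM with ISP-I, and in A549 at 5.74, 6.82 and 6.82 FPKM in controls and 5.30, 4.37 and 4.57 FPKM with ISP-I. In FPKM the treated libraries were below the controls in both lines, by 0.30 (SE 0.109) and 0.38 (SE 0.097) on the log2 scale, and neither was called. The H460 difference depended on the scaling and was -0.054 with median-of-ratios factors. In A549 it was -0.460 to -0.376 over the settings run. Within libraries, ACVR1 and ACVR1B were near equal in H460 controls, with ratios of 0.908 to 0.941, and 4.88 to 6.71 apart with ISP-I, against 0.581 to 0.815 and 1.05 to 1.25 in A549.

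The type II receptor transcripts were low, at or under 1.51 FPKM in every library. ACVR2A (ENSG00000121989, chr2:147844517-147930826, plus strand) was at 0.862, 0.643 and 0.531 FPKM in H460 controls and 1.06, 1.51 and 0.847 FPKM with ISP-I, which overlap. In A549 it was at 0.720, 0.675 and 0.798 FPKM in controls and 0.862, 0.910 and 0.897 FPKM with ISP-I, without overlap. The log2 differences were 0.34 (SE 0.128) and 0.13 (SE 0.063), and neither was called, although voom on recovered reads gave 1.04 in H460 and called it. ORC4 overlaps ACVR2A on the opposite strand.

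ACVR2B (ENSG00000114739, chr3:38453890-38493142, plus strand, overlapped by ACVR2B-AS1) went the other way in its means, to 0.391 ± 0.0994 from 0.545 ± 0.092 FPKM in H460 and to 0.713 ± 0.0417 from 0.877 ± 0.124 FPKM in A549 (SD, n = 3). The libraries overlapped in both lines and neither difference was called. The ratio of ACVR2A to ACVR2B was 1.14 to 1.34 in H460 controls and 2.63 to 3.06 with ISP-I, and 0.735 to 1.08 and 1.20 to 1.28 in A549. This ratio was therefore higher in all treated than in all control libraries of both lines, while in H460 the libraries overlapped for each single gene. In A549 the gap was narrow and rests on few reads. It lay between 1.083 in control library 3 (76 and 171 reads) and 1.198 in ISP-I library 2 (92 and 187 reads). No counting interval was computed for it.

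SMAD7, the feedback inhibitor (ENSG00000101665, chr18:48919853-48952052, minus strand), was level in H460, at 1.30, 1.31 and 1.49 FPKM in controls and 1.32, 1.41 and 1.58 FPKM with ISP-I. These groups overlapped, with a log2 difference of 0.04 (SE 0.092). In A549 it was at 10.34, 10.56 and 11.10 FPKM in controls and 8.60, 6.02 and 6.64 FPKM with ISP-I, all below the controls. The A549 mean was 0.664 times that of the controls (log2 difference -0.54, SE 0.116), under the 2-fold needed for a call.

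**Figure D3:**
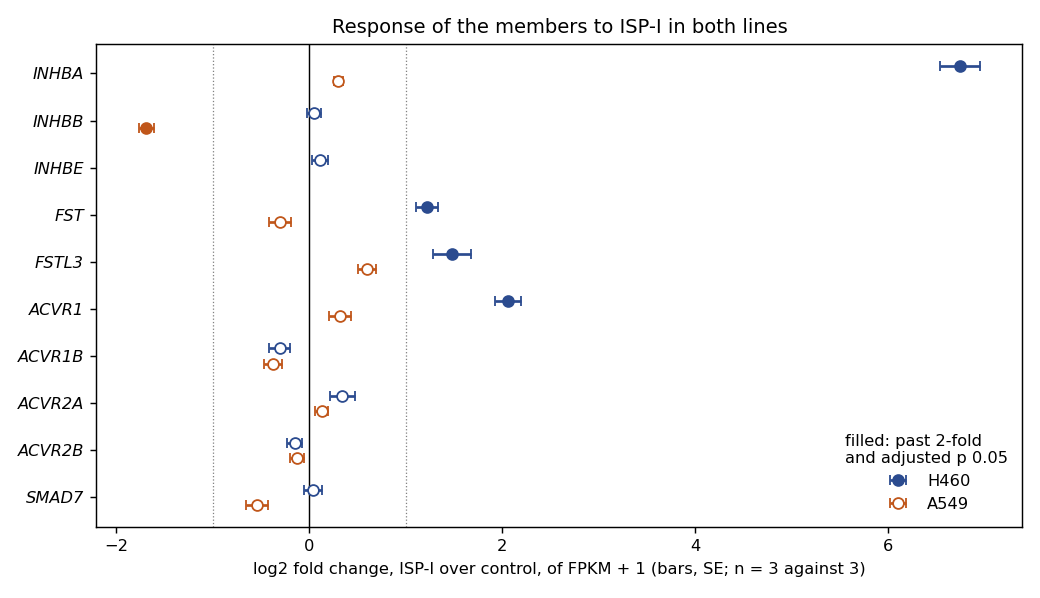
log2 fold change of FPKM + 1 (ISP-I over control, horizontal axis) for each member in H460 (blue) and A549 (orange). Points are limma estimates from 3 against 3 libraries, bars are their standard errors, filled points are called and the dotted lines mark 2-fold. INHBA in H460 is at 6.75 and INHBB in A549 at -1.69, INHBE passed the filter in H460 only, and the receptors other than ACVR1 lie within the dotted lines in both lines.

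In the fit of all 12 libraries, the responses of the lines were also set against each other (H460 minus A549). These differences are built from the values on which the members were chosen and are a description too. Of the 9 members fitted, 4 were called with a positive difference and 0 with a negative one, where 5.93% of 13953 genes were called positive and 10.1% negative. In numbers these were 827 and 1407 genes, and 1305 and 822 after median-of-ratios scaling, under which the same 4 members and FSTL3 were called. On the log2(FPKM + 1) scale, which flattens the change of INHBA in A549, INHBA had the largest positive difference of all genes (6.45, SE 0.239; 3.10 with voom), followed among the members by ACVR1 (1.75, SE 0.174), INHBB (1.74, SE 0.129) and FST (1.52, SE 0.159). For INHBB the sign comes from its lower level in treated A549, not from a rise in H460. FSTL3 had 0.88 (SE 0.235) and was not called, and it was called with 1.19 after median-of-ratios scaling, 1.02 after quantile normalization and 1.22 with voom. It was also called without H460 ISP-I library 2 (1.09). Both lines' responses share no library, so these differences do not rest on common controls.

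The untreated lines were compared in the same fit and as a description. Of the 9 members fitted, 3 were called lower in H460 than in A549 and 0 higher, where 8.5% of 13953 genes were called lower and 5.47% higher. INHBB was 296.1-fold lower in H460 (log2 difference -4.85, SE 0.092), the 20th lowest of all genes. SMAD7 was 7.80-fold lower (-2.30, SE 0.108) and FSTL3 2.33-fold lower (-1.19, SE 0.166). INHBA was higher in H460, with 232 reads in its 3 controls against 1 in A549, but at under 1 FPKM its log2(FPKM + 1) difference was 0.70 (SE 0.169). It was called with a pseudocount of 0.1 and with voom. FST, ACVR1B and ACVR2A overlapped between the untreated lines, while ACVR1 (1.19 times higher in H460) and ACVR2B (1.61-fold lower) did not, and none of these 5 was called.

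**Figure D4:**
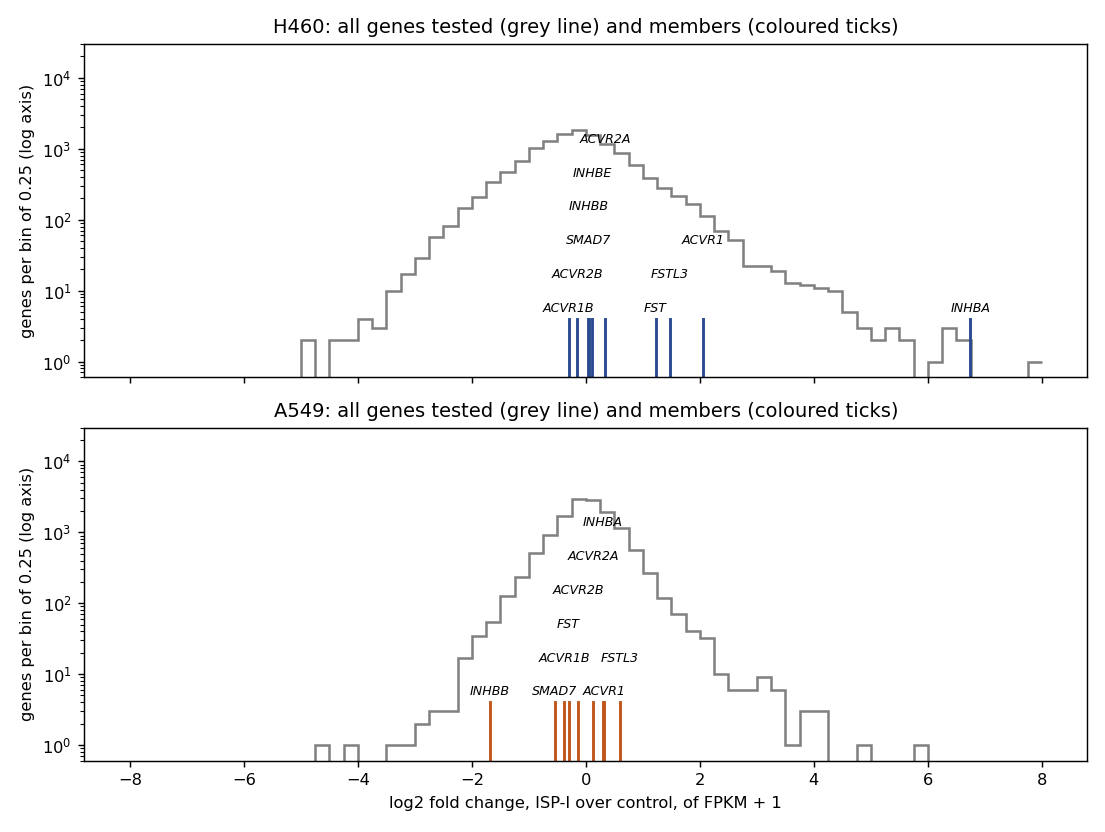
Number of genes (log vertical axis) in bins of 0.25 of the log2 fold change of FPKM + 1 for all genes tested (grey line), above for H460 (13423 genes) and below for A549 (13705 genes), with the members as coloured ticks. INHBA lies at the far right of H460, and FST, FSTL3 and ACVR1 on its right flank. In A549 INHBB is the member farthest from 0.

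By a measure of likeness, the root mean square difference of centred log2(FPKM + 1) over the 12 libraries among 10593 genes averaging 1 FPKM or more, the pattern of INHBA was nearest to that of EGR4, an immediate-early transcription factor, at 0.693. CXCL2, a neutrophil chemokine, followed at 1.05 and IL1A, a cytokine, at 1.10. EGR4 went from 0.140 to 76.91 FPKM (group means) in H460 and was at 0.546 FPKM or less in A549. INHBB was nearest to DNM1, the dynamin of neurons, at 0.120, to CAT, catalase, at 0.183, and to GPRIN2 at 0.198. DNM1 stood at 29.50 FPKM in A549 controls and 8.88 FPKM with ISP-I. INHBE, at a mean of 0.0954 FPKM, was nearest to CC2D2A, SIK3 and RUFY1, at 0.0694 to 0.0763, which varied little.

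Of 60 other genes of the activin and TGF-β pathway, 59 were in the table and 3 of them (SKIL, PMEPA1 and TGIF1) are listed both as regulators and as targets. In H460, 48 were tested, 12 were called higher and 9 lower, with a median log2 difference of 0.18 against -0.15 over all genes. The 12 include ACVR1C, which passed the filter on low values only through the treated H460 libraries and could only be called higher. In A549, 47 were tested, 1 was called higher and 8 lower, with a median of -0.10 against 0.02. The shares over all genes were 10.5% higher and 15.2% lower for H460 and 4.2% and 3.51% for A549. Another scaling moved the split in H460: with median-of-ratios factors, under which the median of all genes was 0.02, 18 were called higher and 6 lower. Over all genes, that scaling changed the H460 counts from 1409 higher and 2047 lower to 1953 and 1415. Of the 12 called higher in H460, 7 are known as SMAD2/3 targets, a list of which 11 were tested there, 7 higher and 1 lower (median 1.31), while in A549 1 of 12 was higher and 4 lower (median -0.31). The lists were drawn up with earlier results of these data known and leave out the members. Their counts are therefore a description and no independent test.

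Among the targets, SNAI2, the repressor Slug, rose by 4.21 in H460 (SE 0.108, limma adjusted p = 8.26e-08), from 1.75 ± 0.190 to 49.77 ± 1.76 FPKM. In A549 SNAI2 went from 0.529 ± 0.133 to 1.43 ± 0.333 FPKM (0.66, SE 0.115), not called, but called with a pseudocount of 0.1 (1.28) and with voom (1.396). KLF10, named for its early induction by TGF-β, was higher in both lines, by 3.89 in H460 (SE 0.177, limma adjusted p = 7.74e-07) and 1.03 in A549 (SE 0.066, limma adjusted p = 8.4e-06). The A549 call of KLF10 was lost without A549 control library 2 (0.98) and after quantile normalization (0.98). BHLHE40, a repressor of the circadian family, differed by 2.75 in H460 (SE 0.137) and 0.84 in A549, JUNB, an AP-1 subunit, by 1.92 (SE 0.301) and 0.22, and CCN2, a matricellular protein, by 1.03 (SE 0.102) and 0.38. These 3 were called in H460 and not in A549, and the difference between the lines was called for BHLHE40 and JUNB but not for CCN2 (0.65, SE 0.115). Most of these genes also answer to signals other than activin, and activin or SMAD activity was not measured.

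Other targets parted between the lines. LTBP2, a matrix protein, was higher in H460 by 1.31 (SE 0.112, limma adjusted p = 1.47e-05) and lower in A549 (-1.02, SE 0.073, limma adjusted p = 1.34e-05), a call lost without A549 ISP-I library 1 (-0.99). TNC, tenascin C, was at 4.65 ± 0.236 FPKM in A549 controls and 0.764 ± 0.0435 with ISP-I (-1.68, limma adjusted p = 1.45e-06), and its H460 difference of 0.97 was just under the fold threshold. It passed without H460 control library 3 (1.01) or H460 ISP-I library 3 (1.04), and it was 1.14 after median-of-ratios scaling. TGFBI, an extracellular matrix protein, was the exception and was lower in both lines, with log2 differences of -1.25 in H460 (SE 0.139, limma adjusted p = 6.83e-05) and -2.66 in A549 (SE 0.060, limma adjusted p = 8.88e-08). With median-of-ratios scaling its H460 difference was -0.95 and not called. Over the list, 10 of 12 targets had a called positive difference between the lines' responses and 0 a negative one. Over all 13953 genes, 5.93% were called positive and 10.1% negative. SMAD7 is a member and was not counted here, and its difference of 0.58 was not called.

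Of 17 regulators inside the cell tested in H460, 4 were higher and 2 lower, beside 10.5% and 15.2% of all genes. SKIL, the corepressor SnoN that the pathway induces, was higher by 1.69 (SE 0.200, limma adjusted p = 0.0001), and SMURF1, a ubiquitin ligase that works with SMAD7, by 1.45 (SE 0.112, limma adjusted p = 8.61e-06). NEDD4L, a ligase for SMAD2 and SMAD3, was higher by 1.17 (SE 0.104) and USP15, a deubiquitinase of the pathway, by 1.01 (SE 0.256). The USP15 call was lost without H460 control library 2 (0.87) or H460 ISP-I library 2 (0.76). SMAD6, the inhibitory SMAD of the BMP branch, was lower in both lines, with log2 differences of -2.05 in H460 (SE 0.083, limma adjusted p = 4.38e-07) and -1.82 in A549 (SE 0.065, limma adjusted p = 5.98e-07). In FPKM, SMAD6 went from 3.51 ± 0.0375 to 0.0922 ± 0.0401 in H460 and from 22.92 ± 0.214 to 5.77 ± 0.247 in A549. The difference between the lines was -0.23 and not called, but it was called with a pseudocount of 0.1 (-2.28) and with voom (-2.96). SKI, a corepressor related to SKIL, was lower in H460 (-1.16, SE 0.128), which was -0.88 and not called after median-of-ratios scaling. PMEPA1, a membrane protein that sequesters SMADs, was lower in A549, from 94.5 ± 3.55 to 40.6 ± 0.896 FPKM (-1.198, limma adjusted p = 2.97e-06), and was at 0.80 in H460, which passed after median-of-ratios scaling (1.06) and with voom (1.21). SMAD2, SMAD3 and SMAD4, the signal carriers, differed by 0.13, 0.80 and 0.23 in H460 and by -0.30, -0.05 and 0.16 in A549, none of them called.

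Among the other receptors, ENG (endoglin), a co-receptor, was lower in H460, from 20.48 ± 1.95 to 2.81 ± 0.476 FPKM (-2.50, SE 0.133, limma adjusted p = 1.4e-06). TGFBR2, the TGF-β type II receptor, was lower in A549, from 37.86 ± 1.68 to 15.55 ± 0.232 FPKM (-1.23, SE 0.063, limma adjusted p = 2.86e-06), and was at 0.83 in H460, which passed after median-of-ratios scaling (1.08). ACVR1C, a type I receptor for activin B and nodal, was outside the naming rule for its low mean and is given because its values were seen to resemble those of ACVR1. It was at no more than 0.0154 FPKM in H460 controls and at 2.41 to 4.88 FPKM with ISP-I (2.08, SE 0.182), and at no more than 0.0211 FPKM in A549. ACVR1C passed the filter on low values only through the treated H460 libraries, so these values are a description and no p is given.

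Of 6 extracellular binders tested in H460, 3 were lower and 1 higher, beside 15.2% and 10.5% of all genes. Of 5 tested in A549, 2 were lower and 0 higher, beside 3.51% and 4.2%. In H460, FSTL1, a relative of follistatin, was lower (-1.51, SE 0.103, limma adjusted p = 4.5e-06), as were LTBP3, which holds latent TGF-β (-1.87, SE 0.114, limma adjusted p = 2.68e-06), and LTBP4 (-1.36, SE 0.112). LTBP3 was also lower in A549 (-1.40, SE 0.071) and so was LTBP1 (-1.03, SE 0.081), whose call was lost without A549 ISP-I library 1 (-0.997). BAMBI, a pseudoreceptor that lacks a kinase, was at 1.01 in H460 (SE 0.173, limma adjusted p = 0.000881), and its call was lost when any of 4 of the 6 H460 libraries was left out: control library 1 (0.97), control library 2 (0.98), ISP-I library 1 (0.92) and ISP-I library 3 (0.91). Of the other ligands, GDF11 (-1.26, SE 0.118) and TGFB3 (-1.13, SE 0.088) were lower in H460, TGFB3 without a call after median-of-ratios scaling (-0.96), and 0 of 7 tested were called in A549. Of the 4 proprotein convertases, which cut ligand precursors to the mature form, 0 were called in either line, with medians of -0.61 in H460 and -0.36 in A549.

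**Figure D5:**
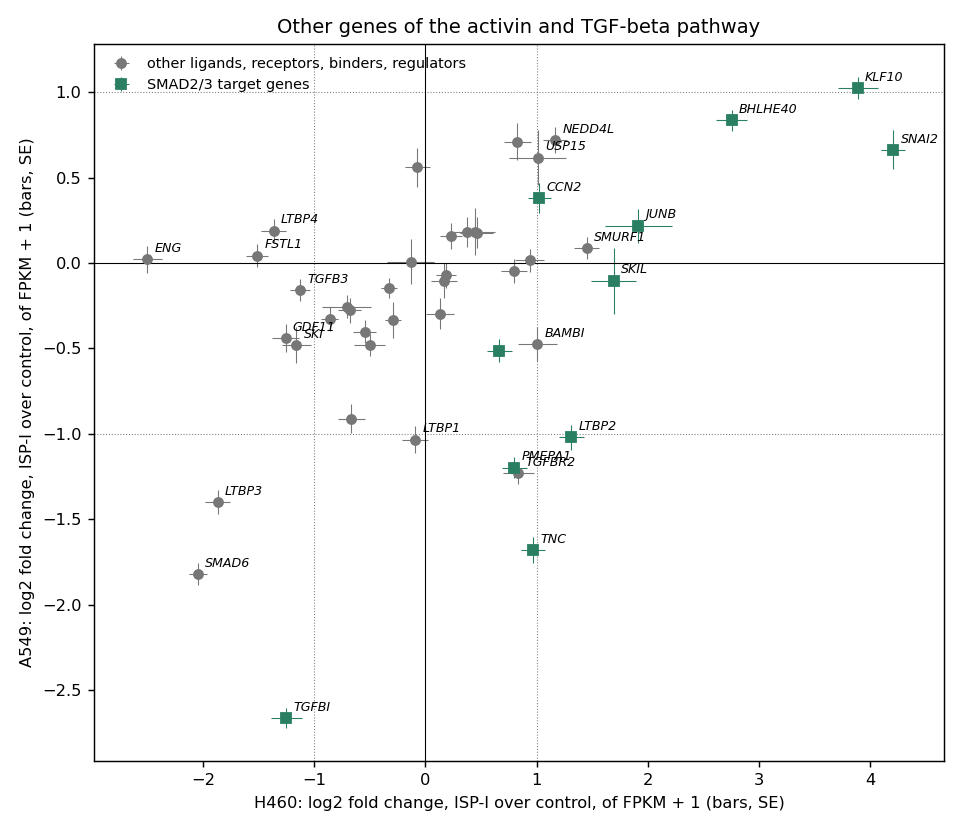
log2 fold change of FPKM + 1 (ISP-I over control) in H460 (horizontal axis) and A549 (vertical axis) for the other pathway genes tested in both lines, with standard errors as bars. Green squares are the SMAD2/3 target genes, grey points the rest, dotted lines mark 2-fold and names are given for genes called in a line. SNAI2 and KLF10 lie far to the right, at 4.21 and 3.89 in H460, and TGFBI is lowest in A549 at -2.66.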

How the data were processed

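Total RNA of H460 and A549 cells was sequenced as paired-end reads. Per the labels and the methods, reads were filtered with FastQC, mapped to hg38 with HISAT2 and counted with HTSeq 0.9.1, and the authors deposited FPKM, not normalized between libraries beyond their total. The annotation version and strand setting were not given in the sources used here. FPKM times gene length gave whole reads (within 0.1) for all values. Of the table's lines, 4 were left out as broken, and 1924 of 19973 genes had no reads. The columns are numbered through each line, and control and treated columns share no number, so each group's libraries were numbered as ordered in the table.

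The members and lists were chosen with earlier results of these data known, and 1 pathway gene is not reported here and is left out of the lists' counts. log2(FPKM + 1) was fitted with limma 3.58.1 (R 4.3.3, trend) over the genes averaging 0.1 FPKM or more and adjusted by Benjamini-Hochberg. A call needed a fold over 2 and an adjusted p under 0.05. The responses were compared, and the untreated lines, in a fit of all 12 libraries. The code was tested on simulated data. All 10 members were named, with other pathway genes called in a line and averaging 1 FPKM or more, and the 3 genes nearest in pattern to each ligand gene. Alternatives were a filter at 1 FPKM or none, a pseudocount of 0.1, median-of-ratios scaling, quantile normalization, voom on recovered reads, other sets of libraries in the fit and each library left out. Python 3.11.15, pandas 2.3.3 and scipy 1.17.1 were used. Counting intervals were 95% binomial. Coordinates were read from the table and GENCODE 44, where 17098 of 19895 matched genes had the same coordinates.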

Additional observations from a re-analysis of the deposited data

Results flagged for a closer look

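The H460 and A549 responses differed for 15 of the 24 named pathway genes by the test of the difference itself (limma interaction in 12 libraries, H460 minus A549, log2 scale). These genes were named because a line's response was called, which favours such differences. Of all 50 pathway genes tested, 14 were called positive and 3 negative, beside 5.93% and 10.1% of all genes. The 14 include ACVR1C, which passed the filter only through the treated H460 libraries and could only be positive. Positive differences were found for the targets SNAI2 (3.55), KLF10 (2.86), TNC (2.65), LTBP2 (2.33), PMEPA1 (1.997), BHLHE40 (1.92), SKIL (1.80), JUNB (1.70) and TGFBI (1.41). They were also found for TGFBR2 (2.06), BAMBI (1.48) and SMURF1 (1.36). For TGFBI the sign comes from a larger fall in A549 than in H460. The differences were negative for ENG (-2.52), LTBP4 (-1.55) and FSTL1 (-1.56). FST is listed with 1.52 because all 3 treated H460 libraries were above, and all 3 treated A549 libraries below, the mean of their controls. Its line difference was in view when the members were chosen, so it is given as a description, with no independent test.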

How the results depend on the processing

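The 4 members called higher in H460 and INHBB in A549 stayed called, in the same direction, under every alternative run and without any single library. With a pseudocount of 0.1, 2322 genes were called higher and 3464 lower in H460, 1336 and 1062 in A549, 1451 and 2788 for the difference between the lines, and 1357 and 2238 between the untreated lines. With voom the counts were 3221 higher in H460, 1426 higher and 1279 lower in A549, 2083 higher for the difference between the lines, and 1577 higher and 2324 lower between the untreated lines. For the difference between the lines, median-of-ratios scaling gave 1305 higher and 822 lower, and quantile normalization 919 lower. INHBA alone became a higher call, 1 member, in A549 and between the untreated lines with a pseudocount of 0.1 and with voom. In the A549 fit INHBA passed the filter only through the treated libraries, so that call is a description. Other pathway genes called higher were 19 in H460 with voom, and in A549 2 with a pseudocount of 0.1, 3 with voom, 0 after quantile normalization and 0 to 1 when a library was left out (0 without A549 control library 2). Those called lower for the difference between the lines were 5 with a pseudocount of 0.1 and 5 with voom. The cause was not tested, except that a smaller pseudocount by construction enlarges differences of low genes. No paired analysis was possible because the columns are numbered through each line, so control and treated libraries share no number. At these depths 3 reads stand for 0.0524 to 0.0650 FPKM of INHBB in H460 and 0.0551 to 0.0692 FPKM of INHBE in both lines, and these values rest on few reads.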
